A study of Mus musculus with 6 samples.

Results

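Collagens, laminins and integrins were described here as 1 group of mouse genes: the structural proteins of the matrix around cells and the receptors that hold cells to it. Members were chosen by gene symbol. They were every collagen chain (Col followed by its type and chain numbers), every laminin chain (Lama, Lamb or Lamc), every integrin subunit with a numbered symbol (Itga or Itgb), and the associated matrix genes Nid1, Nid2, Hspg2, Fn1, Sparc, Dcn and Lum. The deposited table held 82 such genes among 46959. Of these, 52 reached 1 RPKM (reads scaled to gene length and library size) in at least 2 of 6 libraries and were described and tested: 23 of 44 collagens, 7 of 11 laminins, 15 of 20 integrins and all 7 of the others. At the border, the second-highest library read 1.07 for Col8a2, 1.32 for Col11a2 and 1.39 for Col8a1, just inside, and 0.993 for Col4a5, 0.895 for Itga10 and 0.857 for Col12a1, just outside.

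The study sorted cells of pooled islets from adult mice that carried both an Ins1-H2b-mCherry and a Ucn3-eGFP transgene. The first puts a red nuclear marker in cells in which the Ins1 promoter is active, and the second a green marker where Ucn3 is expressed. From the same islets 3 populations were collected, each as 2 bulk RNA-seq libraries: immature beta cells, red only; mature beta cells, red and green; and double negative cells, with neither colour, which are the non-beta cells. All 3 therefore came from mice of the same genotype, after an overnight culture and trypsin digestion. Every population was defined by transgene fluorescence alone, and islets of 10 to 12 mice were pooled to obtain enough cells.

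Basement membranes are thin sheets of matrix that wrap capillaries and underlie epithelia. Laminin trimers, each of an alpha, a beta and a gamma chain, form a first network, type IV collagen forms a second, and nidogen and perlecan link them. Fibrillar collagens build the stroma between cells. Integrins are membrane receptors of an alpha and a beta subunit that bind these proteins, and islet beta cells contact the basement membrane of islet capillaries, which endothelial cells largely produce.

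Depth recovered from the RPKM steps was 2393841 and 3448926 reads in the immature libraries, and between 22063880 and 26824380 in the other 4, so 1 read in a gene of 1 kb was worth 0.290 to 0.418 RPKM in immature cells and at most 0.0453 elsewhere. Ins2 was present at 44932 and 49012 RPKM in immature and 158137 and 170715 in mature cells, against 1126 and 2412 in double negative cells. The immature libraries also held markers of other cells, which are given beside the results, including Gcg of alpha cells at 28018 and 19012 RPKM. The labels call replicate 1 male and replicate 2 female, while the design text names females. Xist was present in all 6 libraries, at 21.4 RPKM or more, and the Y-linked Ddx3y was at most 0.16 RPKM in the libraries labelled male, while Eif2s3y, also Y-linked, reached 2.23 in a library labelled female. These values go against the labels, and sex was not used. Nothing in the labels tells how separate the pools behind the replicates were. The p-values thus reflect no more than the scatter among these libraries. A test across all 13367 genes at 1 RPKM or more in 2 libraries (limma on log2(RPKM + 1), Benjamini-Hochberg adjusted p below 0.05) gave the calls below. On this scale the change of a gene with low values is understated.

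Most of the matrix and integrin genes were expressed most highly in the immature population, where 44 of 52 had their highest mean. Of the others, 5 had it in mature cells (Col6a6, Col14a1, Lama3 and Itgb8 among them) and 3 in double negative cells (Col9a2, Col8a2 and Itga3). Highest means were not counted over all 13367 tested genes. Those genes also leaned to the immature libraries, with 49.8% called above the mature level and 45.9% above the double negative level. How far the 44 exceed that lean was not measured. Summed over all 82 genes, immature cells had 1033 and 972 RPKM, mature cells 177 and 173, and double negative cells 324 and 344. Between immature and mature cells 45 genes were higher and 4 lower, where 49.8% and 15.5% of all genes tested were (65.3% in either direction). The median difference on the log2(RPKM + 1) scale was 2.13 over the 52 genes and 0.285 over all tested genes. A gene that passed the filter only through the immature libraries, as 10 of the 52 did, had to differ. Col8a2 passed only through the double negative libraries, which fixed where it was highest. These figures are therefore a description of the set. In bulk libraries, fewer cells of a type and less RNA per cell cannot be told apart.

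**Figure D1:**
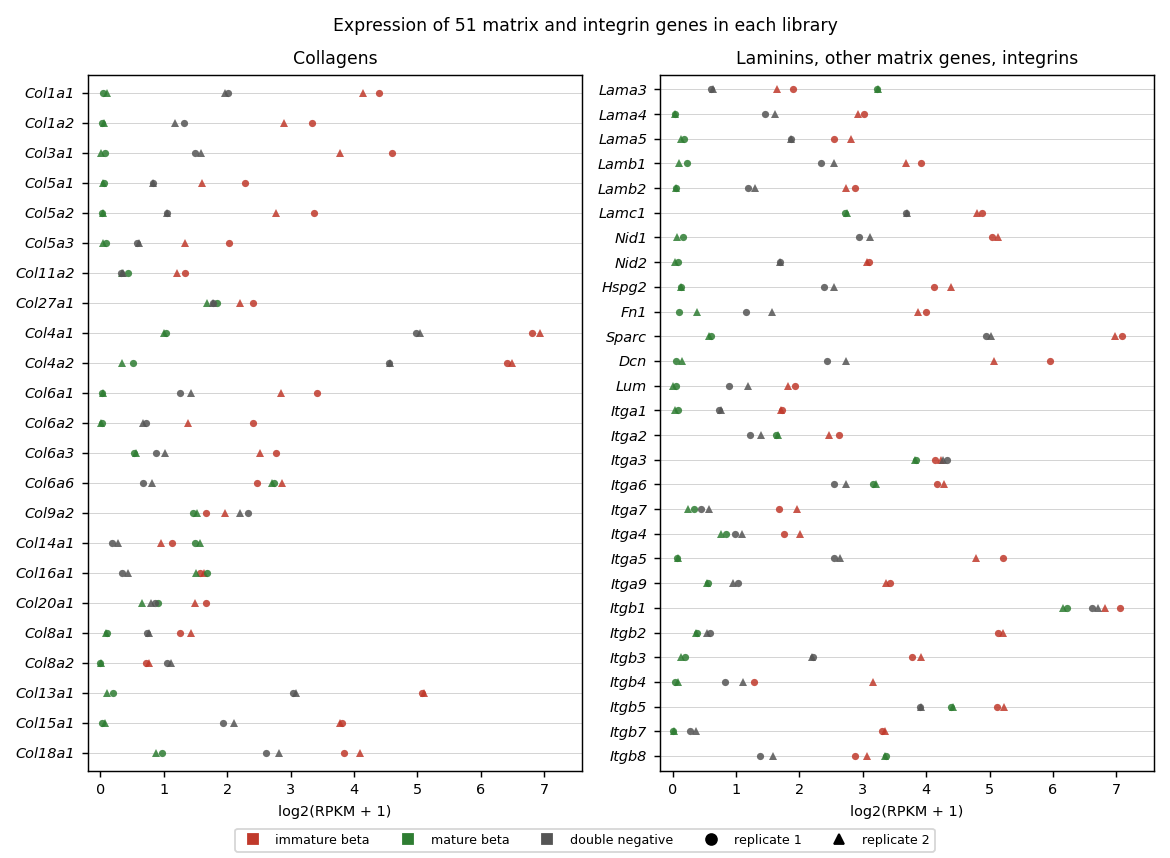
Level of 51 of the tested genes in each of the 6 libraries as log2(RPKM + 1), with collagens on the left and the other genes on the right; colour marks the population and shape the replicate. Sparc, Col4a1 and Col4a2 lie near 7 in immature and near or below 1 in mature cells, while Lama3, Itgb8 and Col14a1 lie furthest right in mature cells.

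The 2 major chains of type IV collagen, which form the network of most basement membranes, differed more than any other collagen tested between mature cells and each of the other populations. Col4a1 read 112 and 121 RPKM in immature, 1.04 and 1.0 in mature and 30.4 and 32.1 in double negative cells. Col4a2 read 83.9 and 88.8, 0.43 and 0.26, and 22.4 and 22.6 RPKM in the same order. The populations did not overlap for either gene, and both had the order immature, double negative, mature. The difference between immature and mature cells was 5.86 (SE 0.06) for Col4a1 and 6.02 (SE 0.08) for Col4a2 on the log2(RPKM + 1) scale (limma, adjusted p = 4.29e-07 and 5.11e-07). Against double negative cells the immature level was higher by 1.86 (SE 0.06) and 1.89 (SE 0.08). The tissue-restricted chains Col4a3, Col4a4, Col4a5 and Col4a6 stayed below 1 RPKM in every library.

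Col4a1 and Col4a2 lie head to head on chromosome 8 of GRCm38, Col4a1 on the minus strand (8:11198423-11312826, ENSMUSG00000031502.11) and Col4a2 on the plus strand (8:11312805-11449287, ENSMUSG00000031503.13). Their starts are 21 bases apart, and the annotated genes share 22 bases, over which reads counted without strand could not be assigned to either. Their promoter windows are shown because this pair shared one pattern over the 3 populations, and those of Itgb8 and Col6a6 because their order of levels was different. Each is 300 bases, from 250 before to 50 after the start, on the strand of the gene and 5' to 3', from RefSeq on GRCm38.p6. Capitals mark CCAAT and GGGCGG, searched on both strands (ATTGG and CCGCCC are the other strand); no matches overlap in these windows, and a match is a description and not a site. The windows are chr8:11312777-11313076 (minus) for Col4a1, chr8:11312555-11312854 (plus) for Col4a2, chr12:119238227-119238526 (minus) for Itgb8 and chr9:105828036-105828335 (minus) for Col6a6.
Col4a1: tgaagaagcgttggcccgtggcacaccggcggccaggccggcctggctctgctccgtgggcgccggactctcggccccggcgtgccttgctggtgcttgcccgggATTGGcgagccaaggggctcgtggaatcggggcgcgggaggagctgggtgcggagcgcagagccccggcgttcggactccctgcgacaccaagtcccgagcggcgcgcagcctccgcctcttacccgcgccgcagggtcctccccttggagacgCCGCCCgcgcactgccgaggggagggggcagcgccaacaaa
Col4a2: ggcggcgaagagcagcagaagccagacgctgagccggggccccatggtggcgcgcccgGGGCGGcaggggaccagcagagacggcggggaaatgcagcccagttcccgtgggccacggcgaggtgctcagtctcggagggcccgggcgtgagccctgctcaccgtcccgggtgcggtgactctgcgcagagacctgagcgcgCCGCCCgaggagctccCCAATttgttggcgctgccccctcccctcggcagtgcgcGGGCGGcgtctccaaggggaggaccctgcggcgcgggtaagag
Itgb8: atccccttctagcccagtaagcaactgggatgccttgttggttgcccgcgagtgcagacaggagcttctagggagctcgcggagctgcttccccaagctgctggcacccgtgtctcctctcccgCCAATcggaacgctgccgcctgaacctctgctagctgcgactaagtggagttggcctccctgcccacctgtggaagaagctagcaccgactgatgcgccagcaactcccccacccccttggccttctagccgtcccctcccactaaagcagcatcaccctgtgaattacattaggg
Col6a6: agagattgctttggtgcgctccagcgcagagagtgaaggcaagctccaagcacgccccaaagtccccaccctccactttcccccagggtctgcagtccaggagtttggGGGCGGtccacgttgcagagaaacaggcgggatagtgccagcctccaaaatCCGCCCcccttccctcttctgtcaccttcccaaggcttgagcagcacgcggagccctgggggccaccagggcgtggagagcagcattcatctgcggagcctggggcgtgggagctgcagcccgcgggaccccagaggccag
The Col4a1 and Col4a2 windows share 78 bases and hold 1 CCAAT each, with 1 GGGCGG in the first and 3 in the second. The GGGCGG of the Col4a1 window lies in the shared bases and is the last of the 3 of Col4a2, read on the other strand. The Itgb8 window held 1 CCAAT and no GGGCGG, and the Col6a6 window 2 GGGCGG and no CCAAT. Across all 32851 windows of this length, 37.4% held CCAAT and 35.7% GGGCGG. Windows of 36 of the 52 tested genes were used, of which 10 held CCAAT and 24 GGGCGG in at least 1 window. These are counts of genes, some with more than 1 window, while the shares above are of windows.

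The linkers of the basement membrane followed type IV collagen. Nid1, a nidogen that binds laminin and type IV collagen, read 31.99 and 34.2 RPKM in immature, 0.12 and 0.055 in mature and 6.66 and 7.65 in double negative cells, a difference of 4.97 (SE 0.09) between immature and mature cells. Its relative Nid2 was lower throughout, at 7.61 and 7.42, 0.060 and 0.023, and 2.22 and 2.22 RPKM. Hspg2, which encodes perlecan, the large heparan sulfate proteoglycan of basement membranes, read 16.5 and 19.9, 0.097 and 0.10, and 4.21 and 4.81 RPKM. All 3 were higher in immature than in mature cells, with Hspg2 differing by 4.12 (SE 0.12, limma adjusted p = 3.16e-06). The multiplexin collagens, basement membrane proteoglycans whose ends can be released as endostatin-like fragments, did the same. Col15a1 read 13.0 and 12.7, 0.020 and 0.053, and 2.82 and 3.31 RPKM, and Col18a1 13.3 and 16.0, 0.97 and 0.84, and 5.14 and 6.04 RPKM in immature, mature and double negative cells.

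Laminin chains divided by subunit. Lama4 and Lama5, Lamb1 and Lamb2, and Lamc1, the chains of the laminins of vessel walls, were higher in immature than in mature cells, and Lama3, a chain of the laminin of epithelial anchoring, was lower. Lama4 read 7.13 and 6.56 RPKM in immature, 0.028 and 0.022 in mature and 1.74 and 2.05 in double negative cells. Lamb1 read 14.2 and 11.8, 0.17 and 0.075, and 4.05 and 4.82 RPKM. For both genes every immature library lay above every other library, and mature cells were lowest; the differences between immature and mature cells were 2.94 (SE 0.10) and 3.64 (SE 0.13). Lama5 (4.84 and 6.01, 0.13 and 0.10, 2.65 and 2.67 RPKM) and Lamb2 (6.32 and 5.63, 0.042 and 0.037, 1.28 and 1.46 RPKM) had the same order. Lamc1, the common gamma chain, was also measured in mature cells, at 5.62 and 5.74 RPKM, against 28.6 and 26.8 in immature and 11.8 and 12.0 in double negative cells.

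Lama3 read 8.38 and 8.5 RPKM in mature, 2.72 and 2.13 in immature and 0.52 and 0.55 in double negative cells. Every mature library was above every other for this chain, with a difference of immature from mature cells of -1.47 (SE 0.11, limma adjusted p = 0.000113) and of mature from double negative cells of 2.62 (SE 0.11, adjusted p = 1.7e-05). The counts behind these values were 2136 and 2449 reads in mature and 70 and 79 reads in immature cells.

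As a share of the summed RPKM of its family, Lama3 made up 97.4% and 98.1% of laminin alpha chain in mature cells, 17.8% and 14.0% in immature and 9.26% and 9.09% in double negative cells. Beta chain was scarce in mature cells, where the 3 Lamb genes summed to 0.658 and 0.676 RPKM, against 8.61 and 8.66 for the alpha chains. The immature libraries held 20.8 and 20.4 RPKM of beta chain. Lamb3, a partner of Lama3 in the epithelial laminin, did not pass the filter and had no test. It read 0.446 and 0.564 RPKM in mature (70 and 100 reads), 0.535 and 0.625 in double negative, and 0.316 and 2.94 in immature cells. The immature libraries disagreed, with 5 and 67 reads and 95% Poisson intervals of 0.103 to 0.737 and 2.28 to 3.73 RPKM, which cover counting error only. Ductal and acinar markers were also higher in the second immature library, with Krt19 at 33.6 and 55.02 RPKM, and the part they have in the Lamb3 value was not tested.

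**Figure D2:**
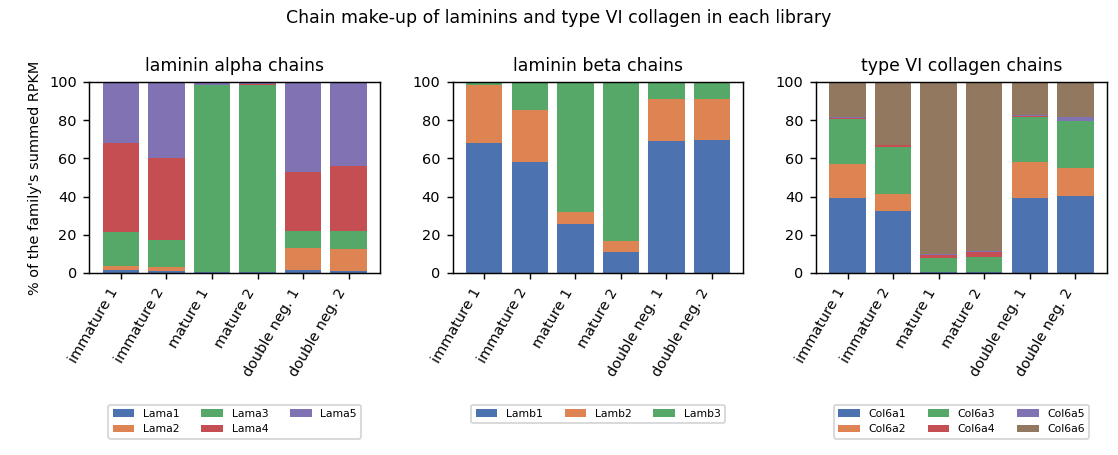
Share of each chain in the summed RPKM of laminin alpha and beta chains and of type VI collagen, for each of the 6 libraries (vertical axis in percent). Mature cells stand apart with Lama3 at 97.4% and 98.1% and Col6a6 at 90.0% and 88.7%; the mature beta chain shares rest on sums of only 0.658 and 0.676 RPKM.

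Fibrillar collagens, which form the cables of connective tissue, were higher in immature than in mature cells for all 8 that were tested. Of all genes tested, 49.8% were higher there. Col5a1, Col5a3 and Col11a2 reached 1 RPKM in the immature libraries only, so that the filter fixed their direction. Col1a1 read 20.0 and 16.6 RPKM in immature, 0.026 and 0.074 in mature and 3.05 and 2.90 in double negative cells, a difference of immature from mature cells of 4.20 (SE 0.11). Col3a1 read 23.2 and 12.8, 0.056 and 0.011, and 1.81 and 1.99 RPKM. Its immature libraries lay further apart than those of Col1a1, and the difference was 4.14 (SE 0.25, limma adjusted p = 5.32e-05). Col1a2, Col5a1, Col5a2 and Col5a3 had means between 2.30 and 7.76 RPKM in immature cells. Their values were at most 0.068 RPKM in mature cells. Col11a2 and Col27a1 differed least, by 0.90 and 0.54 (the latter lost without the second mature library, adjusted p = 0.0542), and Col27a1 remained at 2.58 and 2.21 RPKM in mature and 2.44 and 2.41 in double negative cells. The differences of these 2 genes turned to -0.10 and -0.16 after quantile normalization.

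Col13a1, a transmembrane collagen of cell adhesion sites, was the third most highly expressed collagen of immature cells, at 32.7 and 33.4 RPKM, against 0.15 and 0.073 in mature and 7.17 and 7.50 in double negative cells (difference of immature from mature 4.94, SE 0.07). Among beaded-filament collagens of type VI, Col6a1, Col6a2 and Col6a3 were higher in immature than in mature cells, by 3.10, 1.88 and 2.09. Col6a2 reached 1 RPKM in the immature libraries only, which fixed its direction. Col6a6 was the exception. It read 4.56 and 6.29 RPKM in immature, 5.66 and 5.53 in mature and 0.60 and 0.76 in double negative cells. The 2 beta populations overlapped (difference -0.05, SE 0.14, limma adjusted p = 0.781; -0.42 and past the threshold after median-ratio rescaling), and both lay above double negative cells, by 1.92 and 1.97. Col6a6 supplied 90.0% and 88.7% of type VI collagen RPKM in mature cells, 18.6% and 33.1% in immature and 17.2% and 18.3% in double negative cells. It was also 29.1% and 30.5% of all collagen RPKM in mature cells, where collagens summed to only 19.4 and 18.1 RPKM.

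Collagens that decorate fibrils held the other exceptions. Col14a1, which binds fibril surfaces, read 1.82 and 1.97 RPKM in mature, 1.19 and 0.95 in immature and 0.14 and 0.21 in double negative cells. Immature cells were lower than mature by 0.48 (difference -0.48, SE 0.11, limma adjusted p = 0.00978), a call that was lost when either mature library was left out (adjusted p = 0.0608 and 0.0924) and that rested on 20 and 23 reads in immature cells. Col16a1 read 1.98 and 2.10, 2.22 and 1.85, and 0.26 and 0.35 RPKM in immature, mature and double negative cells. Its beta populations overlapped, with a difference of 0.01 (SE 0.11, adjusted p = 0.971) that became -0.29 after median-ratio rescaling and -0.78 after quantile normalization, both past the threshold. Col9a2, a chain of the fibril-associated type IX collagen, was highest in double negative cells, at 4.03 and 3.62 RPKM, against 2.16 and 2.90 in immature and 1.74 and 1.89 in mature cells. Of the short-chain network collagens, Col8a2 was highest in double negative cells at 1.07 and 1.17 RPKM, with 0.65 and 0.71 in immature cells and 0 and 0.0083 in mature cells. It reached 1 RPKM in the double negative libraries only, so that the filter fixed its direction. Its relative Col8a1 was highest in immature cells, at 1.39 and 1.70 RPKM against 0.67 and 0.71 in double negative cells. Col8a1 reached 1 RPKM in the immature libraries only, which likewise fixed its direction.

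Sparc, a secreted glycoprotein that binds collagen, was the highest matrix gene of the set in immature cells and showed its largest difference. It read 135 and 126 RPKM in immature, 0.53 and 0.49 in mature and 29.9 and 31.6 in double negative cells, with a difference of immature from mature cells of 6.45 (SE 0.06, limma adjusted p = 4.29e-07). Dcn, the small leucine-rich proteoglycan decorin of fibroblasts, read 60.7 and 32.7, 0.040 and 0.11, and 4.44 and 5.64 RPKM. The immature libraries lay apart here as they did for Col3a1, and the difference from mature cells was 5.41 (SE 0.28). Lum, its relative lumican and its neighbour on chromosome 10, read 2.82 and 2.52, 0.041 and 0, and 0.85 and 1.29 RPKM. Fn1, fibronectin, a ligand of several integrins, read 15.0 and 13.7, 0.069 and 0.31, and 1.23 and 1.96 RPKM, and was higher in immature cells by 3.70 (SE 0.17) over mature and 2.58 (SE 0.17) over double negative cells.

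Several integrins were also measured at high levels in mature cells. Itgb1, the beta subunit shared by most matrix-binding integrins, was the most highly expressed member there at 73.5 and 70.1 RPKM, against 133 and 112 in immature and 96.6 and 104 in double negative cells. It made up 71.2% and 69.9% of beta subunit RPKM in mature, 57.7% and 50% in immature and 82% and 82.3% in double negative cells. Immature cells were higher than mature by 0.75 (SE 0.09, limma adjusted p = 0.000762). The difference of 0.28 from double negative cells (adjusted p = 0.0412) turned to -0.04 after median-ratio rescaling and was lost without any 1 mature or double negative library (adjusted p from 0.0787 to 0.188).

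Among the alpha subunits that bind laminin, Itga3 varied least. It read 16.5 and 17.9 RPKM in immature, 13.4 and 13.2 in mature and 19.0 and 18.3 in double negative cells, with a difference of immature from mature cells of 0.35 (SE 0.06) that turned to -0.07 after median-ratio rescaling. Itga6, its relative, read 17.0 and 18.4, 7.90 and 8.29, and 4.85 and 5.64 RPKM. Both beta populations were above double negative cells for Itga6, mature cells by 0.55 (SE 0.09, adjusted p = 0.00307). Itga7, the laminin receptor subunit of muscle, was at most 0.49 RPKM outside the immature libraries, where it read 2.19 and 2.89. Of the collagen-binding subunits, Itga2 read 5.15 and 4.54, 2.11 and 2.16, and 1.33 and 1.63 RPKM. Itga1 read 2.30 and 2.28 RPKM in immature cells and 0.056 and 0.031 in mature cells. Itga1 and Itga7 reached 1 RPKM in the immature libraries only, so that the filter fixed their direction.

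Itga5, the fibronectin receptor subunit, read 36.2 and 26.6 RPKM in immature, 0.048 and 0.060 in mature and 4.81 and 5.21 in double negative cells, the largest integrin difference between immature and mature cells at 4.93 (SE 0.15). Itgb3, the beta subunit of the vitronectin receptor and of the platelet fibrinogen receptor, read 12.7 and 14.1, 0.14 and 0.095, and 3.65 and 3.59 RPKM. Both showed the order immature, double negative, mature. The leukocyte subunits were high in immature cells and near 0 in both others. Itgb2, the beta subunit of the leukocyte integrins, read 33.9 and 36.0 RPKM in immature cells but 0.30 and 0.29 in mature and 0.50 and 0.46 in double negative cells. Itgb7, found on lymphocytes and other leukocytes, read 8.83 and 9.20, 0 and 0.014, and 0.21 and 0.29 RPKM. Their excess in immature over double negative cells was 4.60 (SE 0.08) for Itgb2 and 3.0 (SE 0.09) for Itgb7. Both genes reached 1 RPKM in the immature libraries only, so that the filter fixed the direction of these differences. The immune markers, whose part was not tested, were likewise highest in immature cells (given below).

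Itgb8, which with Itgav forms a receptor for latent TGF-beta, was the only integrin of the 15 with its highest level in mature cells. It read 9.29 and 9.15 RPKM there, 6.31 and 7.39 in immature and 1.60 and 1.99 in double negative cells. The populations did not overlap, and mature exceeded double negative cells by 1.87 (SE 0.11, limma adjusted p = 5.5e-05). The smaller difference of immature from mature cells, -0.38 (SE 0.11, adjusted p = 0.0221), was lost when either mature library was left out (0.109 and 0.0995), when the first immature library was left out (0.0572) and without a filter on low values (0.0511). Itgav, whose symbol lies outside the rule, showed the same order, with 32.1 and 31.2 RPKM in mature, 22.2 and 23.0 in immature and 9.12 and 9.97 in double negative cells. Itgb5, the beta subunit of another Itgav receptor, read 33.5 and 36.7, 20.0 and 20.5, and 13.9 and 14.1 RPKM in immature, mature and double negative cells, so that mature cells were above double negative cells by 0.50 (SE 0.06).

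Itgb4, the partner of Itga6 in epithelial anchoring, depended on 1 library. It read 1.43 and 7.98 RPKM in immature, 0.030 and 0.058 in mature and 0.78 and 1.15 in double negative cells, from 24 and 193 reads in immature cells. The excess of immature over mature cells was 2.16 (SE 0.57, limma adjusted p = 0.017), lost without either mature library (0.068 and 0.0668), and that over double negative cells, 1.26 (SE 0.57, adjusted p = 0.107), did not pass. Without the first immature library the latter was 2.20 (adjusted p = 0.000151). The library with the higher Itgb4 is the one with the higher Lamb3, Krt19 and acinar markers, whose part in these values was not tested.

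Between mature and double negative cells, 9 of the 52 genes were higher in mature cells and 34 lower, where 23.1% and 31.2% of all genes were (54.3% in either direction). The median difference was -0.84 over the 52 genes and -0.084 over all. Those higher in mature cells included the collagens Col6a6, Col14a1 and Col16a1, the laminin chain Lama3, and the integrins Itga2, Itga6, Itgb5 and Itgb8. Of these, Itga2 had the smallest difference, 0.34 (SE 0.10, limma adjusted p = 0.0362), which was lost when any 1 mature or double negative library was left out (adjusted p from 0.0592 to 0.18). The largest falls were those of Sparc (-4.40), Col4a2 (-4.13) and Col4a1 (-4.00).

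Between immature and double negative cells, 47 were higher in immature cells and 2 lower, where 45.9% and 10.6% of all genes were (56.6% in either direction). The median difference was 1.38 over the 52 genes and 0.237 over all. The 2 lower genes were Col9a2 (-0.46, SE 0.13, limma adjusted p = 0.0248) and Col8a2 (-0.33, SE 0.10, adjusted p = 0.0322). Neither was called when either mature or either double negative library was left out, or when only the 2 groups compared were fitted. The 10 genes that passed the filter through the immature libraries only, Itgb2 and Itgb7 among them, could only be higher there. Col8a2, which passed through the double negative libraries only, could only be lower in immature cells. After Itgb2 and Itgb7, the largest excesses were those of Dcn (2.92), Col3a1 (2.66) and Fn1 (2.58). The 3 comparisons share their libraries, so their values are set side by side and are not independent.

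**Figure D3:**
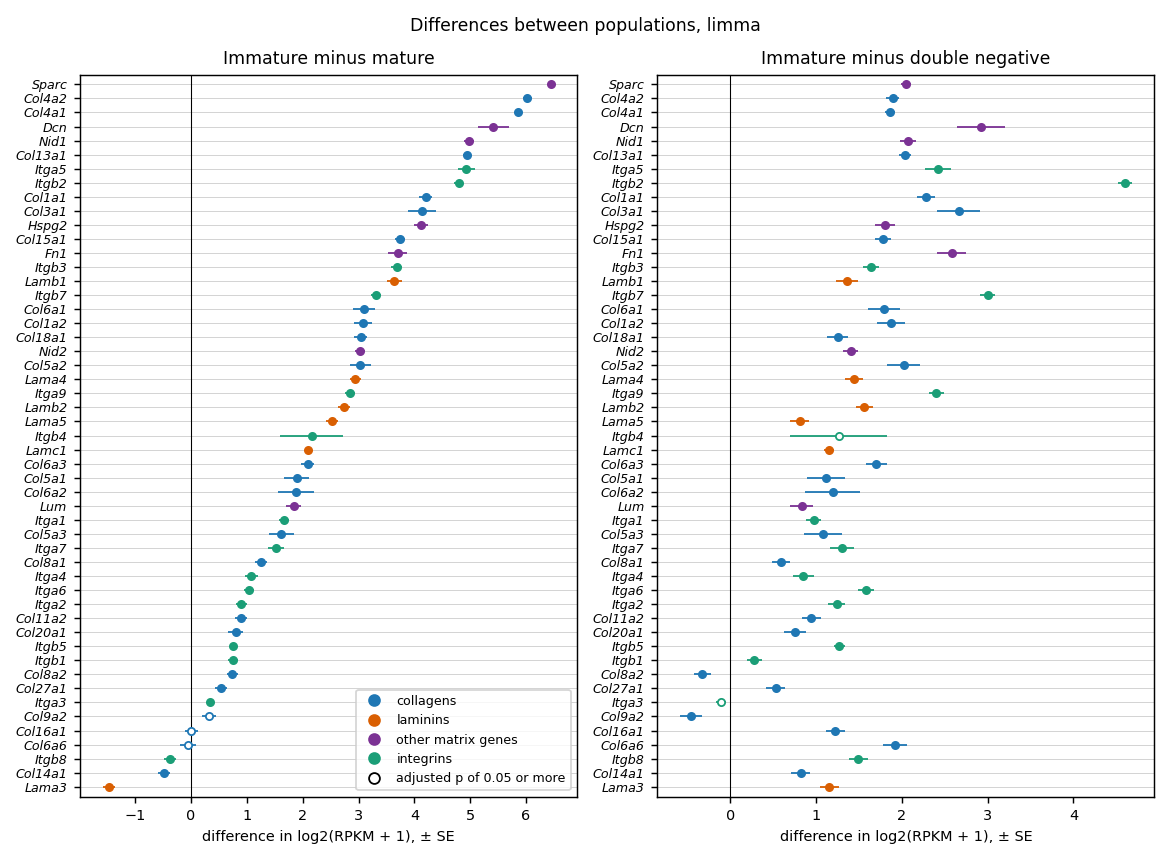
Difference in log2(RPKM + 1) of 51 of the tested genes, immature minus mature (left) and immature minus double negative (right), with bars of 1 SE from limma (2 libraries per population) and open points where the adjusted p was 0.05 or more. Sparc leads at 6.45 and Lama3 is lowest at -1.47 on the left. On the right Itgb2, which reached 1 RPKM in the immature libraries only, stands out at 4.60.

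Expressed as a ratio of mean RPKM, immature over double negative, the 52 genes ranged from 0.61 for Col8a2 to 72.4 for Itgb2, with a median of 4.12. Basement membrane genes ran from 2.62 for Col18a1 and 3.38 for Nid2, through 3.73 for Col4a1, 3.83 for Col4a2, 4.04 for Hspg2 and 4.21 for Col15a1, to 4.63 for Nid1. Sparc lay at 4.24. Among laminin chains, Lama5 lay at 2.04, Lamc1 at 2.33 and Lama3 at 4.53. The 12 endothelial markers had ratios of 2.86 to 4.49 (median 3.92). Of the stromal members, Lum lay at 2.49, Col1a1 at 6.16, Dcn at 9.28 and Col3a1 at 9.49, and the 11 mesenchymal markers ran from 0.93 to 22.1 (median 3.34). The 10 immune markers ran from 8.42 to 160 (median 72.4). These ratios are a description, and each rests on 2 libraries per population.

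**Figure D4:**
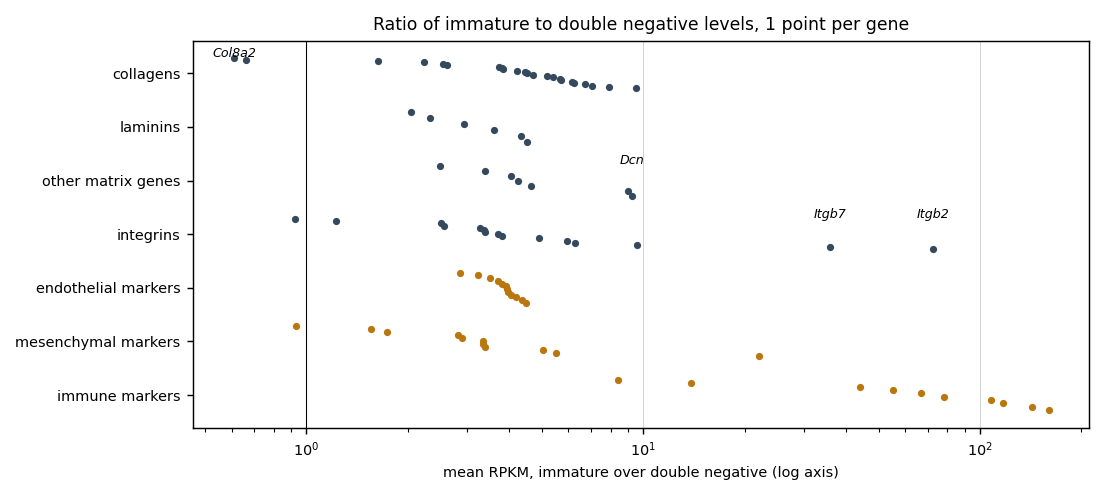
Mean RPKM in immature over mean RPKM in double negative cells on a log axis, 1 point per gene, for 51 of the tested genes by family (dark) and for 3 lists of cell type markers (orange). Endothelial markers lie between 2.86 and 4.49. That range also holds Col4a1, Col4a2, Itgb8 and the median of the 52 genes (4.12), but not Col18a1 (2.62) or Nid1 (4.63). Itgb2 at 72.4 and Itgb7 at 35.8 lie among the immune markers.

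Markers of several other cell types were high in the immature libraries, as the matrix genes were. Counts of markers higher than in mature cells are to be read against 49.8% of all genes. All 12 endothelial markers were higher in immature than in mature cells, and they summed to 548 and 550 RPKM in immature, 4.01 and 3.20 in mature and 137 and 143 in double negative cells, with Cldn5 at 0 in both mature libraries. Of the 11 mesenchymal markers, 10 were higher in immature than in mature cells, with sums of 43.8 and 51.5, 1.43 and 1.16, and 15.8 and 20.6 RPKM. Pdgfra, Cspg4, Des, Notch3, Myh11 and Tcf21 reached 1 RPKM in the immature libraries only, so that the filter fixed their direction. Tcf21 was at 0 in both mature libraries. All 10 immune markers were higher in immature than in mature cells, with sums of 1042 and 1089, 59.0 and 59.7, and 33.6 and 33.0 RPKM, so that double negative cells were lowest. The mature sum came mostly from Cd68 and C1qa. Among the immune markers, Ptprc, Csf1r, Adgre1 and Laptm5 reached 1 RPKM in the immature libraries only. Of 4 platelet markers, Pf4 read 51.0 and 74.4 RPKM in immature and at most 0.85 elsewhere, and Ppbp was likewise higher in immature cells. Pf4 and Ppbp also reached 1 RPKM in the immature libraries only. Gp9 was at 0 in both immature libraries and Gp1bb stayed below 1 RPKM in all 6. Acinar markers summed to 8756 and 27500 RPKM in immature, 175 and 121 in mature and 250 and 2091 in double negative cells. Ductal markers summed to 169 and 191, 73.2 and 73.7, and 121 and 142 RPKM. Markers of the other endocrine cells had another order. All 6 alpha, 4 delta and 2 PP cell markers were highest in double negative cells, and all were lower in immature than in double negative and higher than in mature cells. The part of these cells in the differences above was not tested.

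**Figure D5:**
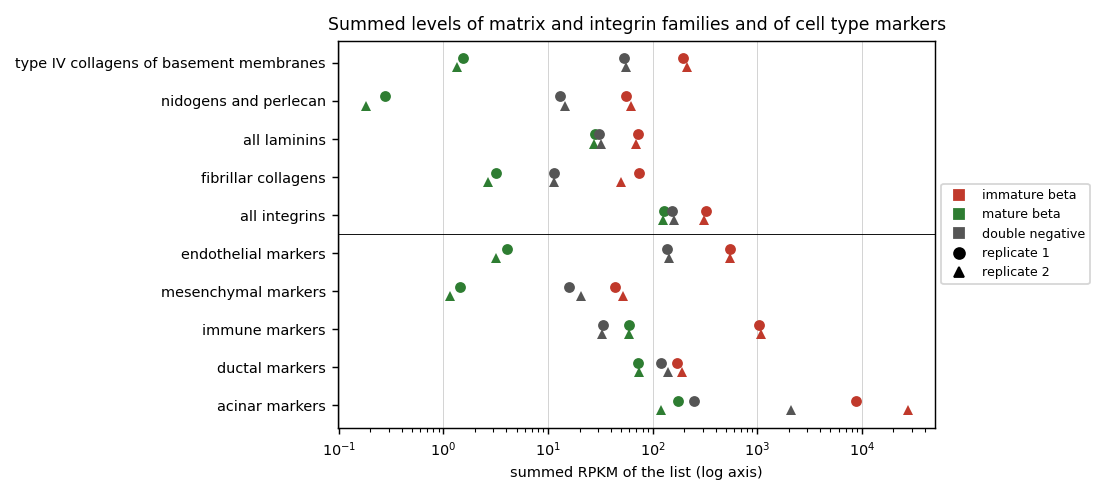
Summed RPKM of 5 groups of matrix and integrin genes (above the line) and of 5 lists of cell type markers (below it) in each of the 6 libraries, on a log axis. Type IV collagens run from 197 and 211 in immature to 1.54 and 1.34 in mature cells, and endothelial markers from 548 and 550 to 4.01 and 3.20.

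The genes that make, remodel and sense the matrix were followed as 6 lists, and each count is to be read against the 49.8% of all genes higher and 15.5% lower in immature than in mature cells. The lists' median differences were 0.75 for collagen synthesis, 2.66 for proteases and inhibitors, 2.04 for other glycoproteins, 3.32 for the alpha subunits outside the rule, 1.08 for adaptors and 1.60 for other receptors, against 0.285 over all genes. Of 23 tested genes for collagen synthesis and modification, 16 were higher and 3 lower in immature than in mature cells. Of the 23, 4 reached 1 RPKM in the immature libraries only, which fixed their direction. Serpinh1, the chaperone of procollagen, had the largest difference, 4.60, and Loxl1, a cross-linking enzyme, differed by 2.29. Plod2, a lysyl hydroxylase, and Fkbp10, a procollagen prolyl isomerase, differed by 2.28 and 2.15. The prolyl hydroxylase subunits P4ha1 and P4ha2 and their partner P4hb, which is also a general disulfide isomerase of the secretory pathway, were the 3 lower genes. P4hb read 409 and 398 RPKM in immature, 705 and 716 in mature and 335 and 328 in double negative cells. Of 19 matrix proteases and inhibitors, 15 were tested and these 15 were higher in immature than in mature cells, but 7 of them reached 1 RPKM in the immature libraries only, so that the filter fixed their direction. The differences were led by Mmp14 (5.21), Timp1 (4.95), Mmp12 (4.08) and Timp3 (3.88).

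Of 18 other matrix glycoproteins tested, immature cells were higher than mature cells for 16 and lower for 2. Of the 18, 6 reached 1 RPKM in the immature libraries only. Thbs1 (7.18), Tgfbi (7.05) and Mgp (6.51) exceeded Sparc, and Bgn, a relative of Dcn, differed by 3.70. The 2 lower ones were the elastic fibre proteins Emilin1, at 9.22 and 11.2 RPKM in immature, 29.7 and 30.0 in mature and 1.84 and 1.89 in double negative cells, and Fbln5, at 2.01 and 0.75, 7.03 and 7.20, and 0.27 and 0.28 RPKM. These genes were named for their direction after their values were seen, as were the 3 prolyl hydroxylase genes. Of 4 tested alpha subunits outside the rule, Itgax (4.25), Itgam (4.06) and Itgal (2.58), partners of Itgb2 on leukocytes, reached 1 RPKM in the immature libraries only and were higher there, and Itgav was lower (-0.47). Of 18 adaptor and signalling genes that act below integrins, 15 were higher and 3 lower, with Lims2 at 4.42 and the blood cell kindlin Fermt3 at 3.70. Fermt3 was 1 of 2 adaptors that reached 1 RPKM in the immature libraries only, which fixed their direction. Of 13 other matrix receptors, 12 were higher and none lower, with the hyaluronan receptor Cd44 at 3.52 and the syndecan Sdc1 at 2.61. The filter likewise fixed the direction of 2 of these receptors. Between mature and double negative cells, where 23.1% of all genes were higher and 31.2% lower, the numbers higher and lower were 7 and 9 for collagen synthesis, 0 and 8 for proteases and inhibitors, and 2 and 13 for glycoproteins. They were 1 and 0 for the alpha subunits, 4 and 10 for the adaptors, and 1 and 10 for the other receptors. Between immature and double negative cells, where 45.9% of all genes were higher and 10.6% lower, they were 17 and 1, 14 and 0, 17 and 1, 4 and 0, 15 and 1, and 6 and 3 in the same order.

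The 30 genes below the filter were not tested. The highest value among them was the 2.94 RPKM of Lamb3, and in mature cells none exceeded 0.564 RPKM, also Lamb3. Among them were the cartilage collagens Col2a1, Col9a1, Col9a3, Col10a1 and Col11a1, the anchoring collagens Col7a1 and Col17a1, the laminin chains Lama1, Lama2 and Lamc3, and the integrin subunits Itga8, Itga10, Itga11, Itga2b and Itgb6. With 1 read in 1 kb worth 0.290 to 0.418 RPKM in immature cells, a low level there was measured with less precision than in the other libraries.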

How the data were processed

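Sorted islet populations were measured by bulk RNA-seq, with TruSeq libraries per the labels' protocols. The 6 columns of RPKM values in the table the authors deposited were matched by title. The submitters' processing notes name the build GRCm38.p4 and, as tools, STAR 2.5, featureCounts and edgeR 3.14.0. For annotation release, filters and multi-mapping nothing is given in the sources used here. The RPKM unit divides by gene length and library total, so an abundant hormone lowers all other values.

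Genes with at least 1 RPKM in 2 libraries (13367) entered limma 3.58.1 (R 4.3.3) as log2(RPKM + 1), with group means over all 6 libraries, an intensity trend, 3 residual degrees of freedom and Benjamini-Hochberg adjustment at 0.05 over all genes. The procedure was tested on simulated data that gave every library, beyond counting noise at its depth, the spread of the mature replicates. That test does not cover a wider spread of the immature replicates beyond counting noise. Depth came from the RPKM steps with GENCODE M21 exonic lengths: 78.1% to 83.8% of low values were whole reads within 0.02 reads. Coordinates are from the same annotation. Counts and sums cover all members, and the results for 1 tested member are not reported here.

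The members and gene lists were chosen with earlier results of these data known. The members named in full were the 12 largest rises and up to 6 falls for immature against mature cells, 6 and 6 for the other comparisons, and the 3 highest in each population, with up to 4 genes per pathway list. Others were named for their role after their values were seen. Alternatives varied pseudocount, filter, scaling, trend, groups fitted, a replicate block and single libraries, and used limma's voom on recovered reads.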

Additional observations from a re-analysis of the deposited data

Results flagged for a closer look

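For 5 genes the difference between populations had opposite signs in the libraries numbered 1 and those numbered 2, which are also those labelled male and female. Each value is a difference in log2(RPKM + 1) between single libraries, and whether the signs differ between the labels was not tested. For immature minus mature cells they were Col6a6 (-0.26 and 0.16) and Col16a1 (-0.11 and 0.12). For mature minus double negative cells they were Col11a2 (0.10 and -0.02), Col27a1 (0.06 and -0.09) and Col20a1 (0.04 and -0.15). None of the 5 passed the test in that comparison.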

How the results depend on the processing

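The immature libraries are shallower and their replicates further apart (SD of the difference between replicates 0.393, against 0.132 in mature and 0.222 in double negative cells), while the model assumes 1 spread per gene. Against mature cells, 36 members were higher and 7 lower after quantile normalization, and 43 and 6 after median-ratio rescaling. The share of higher among all genes called fell from 76.2% to 36.8% and 45.2%, and the median of all genes from 0.29 to -0.17 and -0.07. Against double negative cells, immature members higher and lower numbered 38 and 4, and 45 and 4, while the share among all genes fell from 81.2% to 39.7% and 49.6%, and the median from 0.24 to -0.11 and -0.03. Mature against double negative cells gave 11 and 27 after quantile normalization. At 5 RPKM or more (33 members), 32 differed between immature and mature cells, 29 of them higher, and 31 between immature and double negative cells, 31 higher and 0 lower. Of all 8794 genes at that level, 5922 differed between immature and mature cells, 69.5% of them higher. Members lower in immature than double negative cells numbered 4 without a filter, 0 with voom, 0 with only the 2 groups fitted, 1 with the replicate block, and 0 to 3 with 1 library left out (0 without any 1 of the mature or double negative libraries, 3 without the second immature library). Members lower in immature than mature cells numbered 2 to 4 with 1 library left out, and were 2 without either mature library. With 1 library left out, 45 to 49 members were called between the beta populations, 37 to 48 between mature and double negative and 42 to 50 between immature and double negative cells. Of all genes, 4767 (without the second mature library) to 8982 were called between mature and double negative cells. Voom on 8995 genes with whole reads called 5632 between the beta populations and 4831 between immature and double negative cells, where limma on RPKM called 8728 and 7563.

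Quantile normalization reversed immature minus mature for Col11a2 (-0.10), Col27a1 (-0.16), Col9a2 (-0.46), Col16a1 (-0.78) and Col20a1 (-0.07), and mature minus double negative for Col27a1 (0.25), Col6a3 (0.08), Col20a1 (0.37), Itga7 (0.22), Itga4 (0.17), Itga9 (0.03), Itgb2 (0.26), Mmp12 (0.23), Itgam (0.01) and Fermt3 (0.21). Median-ratio rescaling reversed Col16a1 (-0.29) and Itga3 (-0.07) for immature minus mature, Col27a1 (0.07) for mature minus double negative, and Itgb1 (-0.04) for immature minus double negative cells. With 1 library left out, 5 genes changed sign: Col6a6 (-0.25 to 0.15) and Col16a1 (-0.08 to 0.09) for immature minus mature, and Col11a2 (-0.01 to 0.09), Col27a1 (-0.09 to 0.06) and Col20a1 (-0.18 to 0.07) for mature minus double negative cells. The cause was not tested.

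The replicate numbers are not stated to pair libraries. Deviations of same-numbered libraries from their group means correlated at -0.00933 for immature and mature, 0.14 for immature and double negative and -0.112 for mature and double negative cells. With the replicate block, 49 members were called between the beta populations, 40 between mature and double negative and 47 between immature and double negative cells. Of all 13367 genes, the same fit called 8407 between the beta populations and 6803 between mature and double negative cells.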
